A study of Mus musculus with 2 samples.

Results

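The Six3 Pmaip1 Arhgap36 neurons were 94 of 8072 neurons, and of 18368 cell barcodes, in 2 single-cell RNA libraries from the mouse preoptic area. A cell counted as a neuron when it had at least 2000 detected genes, under 20% mitochondrial UMIs (unique molecular identifiers, each standing for 1 captured RNA molecule), at least 10 UMIs of the synaptic genes Snap25 and Syt1 together, and at most 1 UMI of the oligodendrocyte genes Mog and Ermn together. A neuron was a member when it also had at least 1 UMI each of Six3, Pmaip1 and Arhgap36, at most 2 of Calca and at most 1 of Slc18a2. The members were thus chosen by the measured UMIs of these genes, and the levels of those genes are given below as a description only. The SD+RS library came from mice kept awake for 6 h of sleep deprivation (SD) and then allowed 2 h of recovery sleep (RS), and the SD library came from mice taken after 6 h of sleep deprivation alone. Both used C57BL/6J mice 9 to 10 weeks old, with males and females pooled in each library, tissue of the preoptic area, and Act-seq with 10x Genomics chemistry, per the labels. Act-seq adds a transcription inhibitor during dissociation so that genes induced by handling are held back. Each group was 1 library, so there was no replicate check and no test between the groups, and every interval below is a 95% interval that covers counting error only. The SD+RS library held 38 members among 4149 neurons and the SD library held 56 among 3923.

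Six3 encodes a homeodomain transcription factor of the anterior forebrain and eye, and its expression in adult neurons marks some inhibitory neurons of forebrain and hypothalamic origin. Pmaip1 encodes Noxa, a BH3-only protein of the Bcl-2 family that acts at mitochondria. Arhgap36 is an X-linked gene that encodes a protein that inhibits the catalytic subunit of protein kinase A and activates Hedgehog signalling. The preoptic area holds many kinds of GABA neuron, among them sleep-active cells, and transcripts of immediate early genes such as Fos appear within minutes of strong neuronal activity, which is why they serve to mark recently active cells. On mm10, Six3 (ENSMUSG00000038805) spans chr17:85613608-85629302, Pmaip1 (ENSMUSG00000024521) chr18:66458533-66465565 and Arhgap36 (ENSMUSG00000036198) chrX:49463945-49500244, all protein-coding genes on the plus strand.

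The members did not form a single group. When all neurons were clustered with the activity and stress genes left out and the rule's genes kept in, 64 of the 94 members fell in 1 of 39 clusters, 27 from the SD+RS library and 37 from the SD library. That cluster, called the main cluster here, was led by Six3, Pmaip1, Zic1, Zic4, Sox3, Gfra1, Rtn4rl1, Arhgap36, Onecut2 and Insm2, and held 100 neurons in the SD+RS library and 115 in the SD library. The other 30 members were spread over 11 clusters, so that 12 clusters held at least 1 member. A neighbouring cluster led by Sox3, Ctxn3, Pmaip1 and Hmx2 held 4 members in the SD+RS library and 5 in the SD library. A cluster led by the endothelial genes Cldn5, Ly6c1 and Flt1 held 0 members in the SD+RS library and 5 in the SD library, of which a doublet caller marked 4. A cluster led by the astrocyte genes Slc1a3 and Agt held 1 and 3 members in these libraries, and all 4 were called doublets. A cluster led by Sst, Npy and Slc10a4 held 3 members in the SD+RS library and 0 in the SD library. The remaining members lay 1 or 2 to a cluster. Results are therefore given for all members and again for the members in the main cluster, a subset chosen after the data were seen. Because clusters are built from the same counts, leading genes of a cluster describe it and test nothing.

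**Figure D1:**
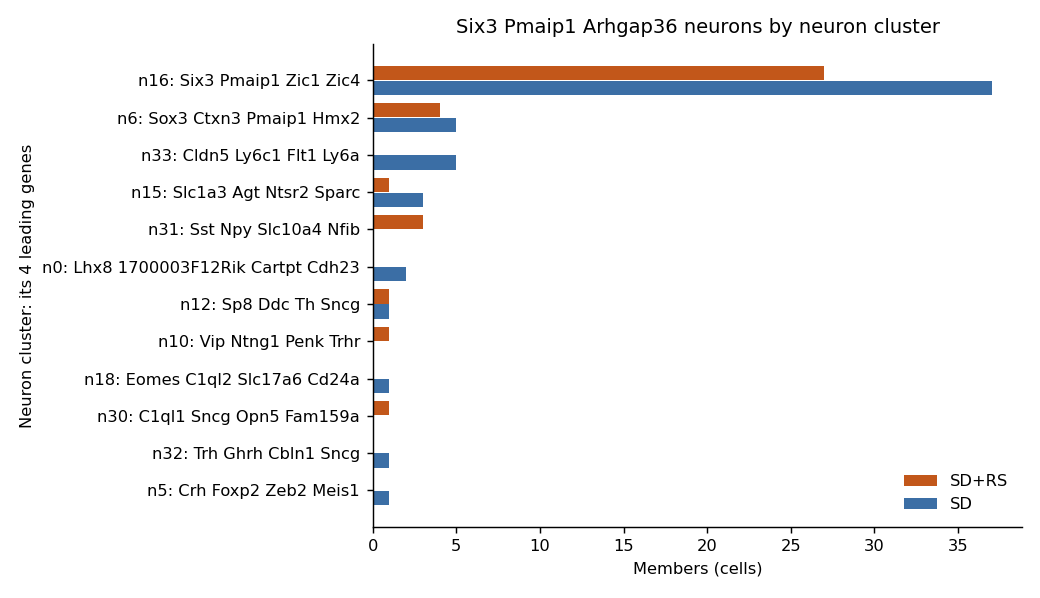
Number of members in each neuron cluster, by library, with clusters called by their leading genes. The main cluster holds 27 of the 38 SD+RS members and 37 of the 56 SD members, and the cluster led by Cldn5 holds 5 members, all from the SD library.

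Six3, the transcription factor, had 1, 6 and 53 UMIs per cell (lowest, median and highest) in SD+RS members and 1, 6.5 and 23 in SD members. That is 400 and 341 CPM (UMIs of the gene per 1000000 UMIs of the same cells), against 44.6 and 54.8 CPM in all other neurons of the same libraries. The 3 SD+RS members of the cluster led by Sst, Npy and Slc10a4 held 24, 48 and 53 of the Six3 UMIs. In main-cluster members the order was reversed, at 455 CPM in the SD+RS library and 474 in the SD library, with highest counts of 20 and 23. Arhgap36 had 1, 4 and 22 UMIs per cell in SD+RS members and 1, 6 and 21 in SD members, or 260 and 354 CPM, against 68.4 and 74.8 CPM in other neurons. Pmaip1 was the sparsest, with 1, 2 and 6 UMIs per cell in SD+RS members and 1, 2 and 11 in SD members, or 88.7 and 138 CPM, against 2.36 and 2.28 CPM in other neurons. A Pmaip1 UMI was found in 3.31% of the other neurons in each library, and in 0.308% of astrocyte-like cells in the SD+RS library and 0.663% in the SD library, at median depths of 21822, 22287, 3185 and 3531 UMIs per cell in that order.

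Because Pmaip1 was sparse, it set where the rule cut. Of the main cluster, 43.0% of SD+RS cells and 43.5% of SD cells had a Pmaip1 UMI, while 97.0% and 99.1% had a Six3 UMI and 69.0% and 73.0% an Arhgap36 UMI. Just outside the rule, cells with Six3 and Arhgap36 but no Pmaip1 numbered 247 in the SD+RS library and 319 in the SD library, and 30 and 44 of them lay in the main cluster. Cells with Pmaip1 and Six3 but no Arhgap36 numbered 32 and 37, with 12 and 13 in the main cluster, and cells lacking Six3 alone numbered 32 and 23, with 0 in the main cluster in either library. Just inside it, 22 SD+RS members and 25 SD members had at least one marker at a single UMI, and 13 and 14 of these lay in the main cluster. Of the members with every marker at 2 or more UMIs, 14 of 16 in the SD+RS library and 23 of 31 in the SD library lay there. The limits on Calca and Slc18a2 removed 6 cells from the SD+RS library, 4 for Calca and 2 for Slc18a2, and 0 from the SD library.

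From the authors' deposited tables of cluster markers, the cluster with the largest share of Pmaip1 cells was taken for each library. Six3 and Arhgap36 are also listed among its markers. In the authors' deposited table for the SD+RS library, the share of cells with a transcript in cluster 18, against all its other cells, was 97% against 16.7% for Six3, 42% against 3% for Pmaip1 and 67% against 33.4% for Arhgap36. In the authors' deposited table for the SD library, the shares in cluster 20 were 99.2% against 19.6% for Six3, 43% against 3% for Pmaip1 and 75.2% against 30.5% for Arhgap36. These shares stand close to those of the main cluster here. Both come from the same libraries, and the authors' clusters were picked by Pmaip1, so the likeness is not an independent check. The numbers of cells behind the authors' shares are not given in those tables.

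Members made up 0.916% of neurons in the SD+RS library (38 cells, Clopper-Pearson interval 0.649% to 1.25%) and 1.43% in the SD library (56 cells, 1.08% to 1.85%), and these intervals overlap. Within the main cluster they were 0.651% of neurons in the SD+RS library (0.429% to 0.945%) and 0.943% in the SD library (0.665% to 1.30%). The order of the libraries was not the same in cells of each sex. Among neurons with Xist UMIs and no Y-linked UMI, members were 1.01% of the SD+RS library (31 cells) and 0.665% of the SD library (9 cells). Among those with Y-linked UMIs alone they were 0.588% (5 cells) and 1.77% (37 cells). No interval was computed for these shares, so the change of order was not shown to exceed counting error. Members had a median of 18022.5 UMIs (4366 to 80756) in the SD+RS library and 18898 (12395 to 44314) in the SD library, below the neuron medians of 21810 and 22255. The whole libraries held 123500649 and 132191585 UMIs over 8106 and 10262 barcodes. They shared 23 barcodes, of which 0 belonged to members.

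Every member carried some transcripts of GABA genes. The summed UMIs of Gad1 and Gad2, which make GABA, and Slc32a1, which loads it into vesicles, were at least 3 in 38 of 38 SD+RS members and 56 of 56 SD members, with lowest values of 4 and 8 and medians of 26 and 32.5. Among other neurons, 82.9% and 83.0% reached 3 UMIs, and among the shallower astrocyte-like cells 0.0771% and 1.04%. Of the 3 members with 7 or fewer such UMIs, 2 were in the cluster led by Sst, Npy and Slc10a4, with 4 and 7 of 80756 and 72924 UMIs in all, so a count of 3 does not by itself show a GABA neuron. The glutamate transporter gene Slc17a6 reached 3 UMIs in 1 SD+RS member and 6 SD members, or 2.63% and 10.7%, against 24.8% and 24.9% of other neurons. In the main cluster, 0 of 27 SD+RS members and 1 of 37 SD members reached it. The glutamatergic transcripts thus lay mostly in members outside the main cluster.

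Outside the rule's genes, 11 of 3552 measured genes (0.310%) were more than 2-fold higher in members than in other neurons in both libraries, and 26 (0.732%) were more than 2-fold lower. A gene counted as measured here when at least 50 UMIs were seen or expected in the members of each library. These ratios describe the cells the rule picked. The forebrain transcription factor Zic1 stood at 304 CPM in SD+RS members and 293 in SD members, against 69.4 and 77.7 CPM in other neurons, and had a UMI in 38 of 38 SD+RS members and 53 of 56 SD members. A Zic1 UMI was found in 33.4% and 37.6% of other neurons and in 2.78% and 4.21% of the shallower astrocyte-like cells. Nfib, a nuclear factor I gene, stood at 63.2 and 66.3 CPM in members against 12.6 and 13.9 in others. Onecut2, a cut-homeobox factor, stood at 78.8 and 118 CPM against 21.2 and 23.2. Other genes above 2-fold were Rgs16, a regulator of G-protein signalling, Arhgap6, a GTPase-activating protein gene, the protein kinase C gene Prkca, the surface glycoprotein gene Cd24a, the synaptotagmin gene Syt17 and Gfra1, the GDNF co-receptor. Gfra1 stood at 86.5 CPM in SD+RS members and 167 in SD members, against 38.8 and 42.7 in other neurons.

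**Figure D2:**
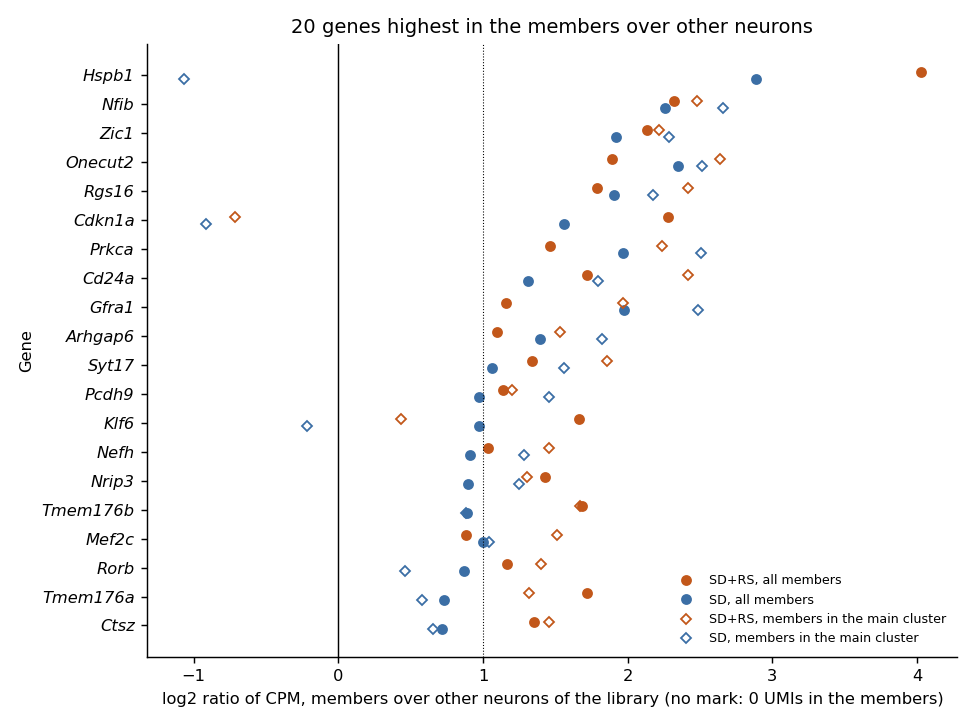
The 20 genes highest in members relative to other neurons, as the log2 ratio of CPM in each library, all members and main-cluster members. Hspb1, Cdkn1a and Klf6 lose their excess in the main cluster, while Zic1, Nfib, Onecut2, Prkca and Gfra1 keep it.

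A few of the highest genes came from members outside the main cluster. Hspb1, a small heat-shock protein gene, stood at 128 CPM in SD+RS members and 113 in SD members, against 7.84 and 15.3 in other neurons. Yet 100% of its SD+RS UMIs and 96.3% of its SD UMIs lay outside the main cluster, whose members had 0 and 7.28 CPM. The cell-cycle inhibitor gene Cdkn1a had 93.7% and 89.8% of its UMIs outside the main cluster, and Klf6, a Kruppel-like factor, 78.5% and 75%. Below the 2-fold limit stood Pcdh9, Nefh, Nrip3, Tmem176b, Tmem176a, Mef2c, Rorb and Ctsz, whose nearer log2 ratios ran from 0.97 for Pcdh9 to 0.72 for Ctsz.

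The main cluster was built from these same counts, so the ratios of its members over other neurons describe it and test nothing. Fewer genes reached the limit for a measured gene in these members than in all members. Of 1860 measured genes, 13 (0.699%) were more than 2-fold higher in its members than in other neurons in both libraries, and 40 (2.15%) more than 2-fold lower. Zic1 stood at 323 CPM in SD+RS members and 379 in SD members of the main cluster, and Gfra1 at 152 and 239. The genes above 2-fold also included Onecut2, Prkca, Cd24a, Nefh, Nrip3, Pcdh9, the calcium channel gene Cacna2d2, the AMPA receptor gene Gria3 and Mef2c. Sox2, a factor that acts with Six3 in eye and forebrain development, stood at 114 and 84.5 CPM in members of the main cluster against 46.9 and 41.7 in other neurons. Several further factors were too sparse to count as measured, with under 50 UMIs in the SD+RS members, and their levels are given as a description. Zic2 and Zic4, which code for related zinc-finger factors, were high. Zic2 stood at 46.1 CPM in SD+RS members and 43.7 in SD members of the main cluster, against 5.38 and 5.72 in other neurons, and Zic4 at 57.1 and 88.9 CPM, with a nearer log2 ratio of 2.37. Cacng5, an auxiliary subunit gene of AMPA receptors, stood at 63.7 and 77.2 CPM against 9.14 and 9.45, and Trpc4, a cation channel gene, at 39.6 and 52.5 CPM against 9.27 and 12.4. Ptger3, the prostaglandin E receptor EP3, stood at 26.4 and 13.1 CPM against 2.13 and 2.65, from only 12 and 9 UMIs. Nr4a2, an orphan nuclear receptor gene, stood at 63.7 and 157 CPM against 4.15 and 5.12, with its UMIs in 4 of 27 SD+RS members and 12 of 37 SD members.

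Of the 10 genes lowest in members, 5 encode peptide precursors that mark other hypothalamic cells. The oxytocin gene Oxt stood at 24.4 CPM in SD+RS members and 40.6 in SD members, against 8232 and 6229 in other neurons. An Oxt UMI was present in 50% and 51.8% of members, with at most 3 UMIs in an SD+RS member and 4 in an SD member. It was also present in 45.5% and 55.9% of other neurons, and in 26.8% and 39.4% of the shallower astrocyte-like cells. The share of cells with a UMI was thus much alike in members and other neurons. Summed UMIs of Oxt, Avp, Sim1 and Otp in other neurons had a median of 1 per cell and highest values of 52513 and 50668, so few cells can carry their CPM. Tac2, the neurokinin B gene, stood at 4.44 and 4.97 CPM in members against 483 and 479, and Gnrh1 at 3.33 and 0.829 CPM against 112 and 120. Crh, C1ql3, Hpca, Lypd1, Amigo2, Fxyd7 and Penk made up the rest of the lowest genes. Penk, the enkephalin precursor gene, stood at 61.0 CPM in SD+RS members, all of it outside the main cluster, and at 21.5 in SD members, against 188 and 151 in other neurons. In the main cluster the prolactin receptor gene Prlr stood at 30.8 CPM in SD+RS members and 39.3 in SD members, against 156 and 168 in other neurons. The oestrogen receptor gene Esr1 had 2.20 CPM in SD+RS members and 0 in SD members of the main cluster, against 33.1 and 21.9 in other neurons. Th and Crh had no UMI in main-cluster members of either library, a count that allows up to 3 UMIs in each.

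Between the libraries, 306 of 6269 measured genes (4.88%) were more than 1.5-fold higher in SD+RS members than in SD members and 523 (8.34%) more than 1.5-fold lower, with a median log2 ratio of -0.03 over all measured genes. In the 31 SD+RS and 9 SD members with Xist UMIs alone, 438 were higher and 231 lower, so the balance of calls turned round. In the 5 and 37 members with Y-linked UMIs alone, 344 were higher and 629 lower, the same balance as in all members. The numbers of genes measured in these smaller sets are not given here. Here a gene was measured at 50 UMIs or more over the members of both libraries. The extremes were made by a few cells. The 10 highest genes in SD+RS members included Slc5a7, Slc18a3, Ngfr, Gm8773, Slc10a4, Sln, Pbld1, S100a10 and Cox6a2. Slc5a7, the choline transporter, had 384 UMIs in SD+RS members against 0 in SD members, and Slc18a3, the vesicular acetylcholine transporter, 152 against 0. The 3 SD+RS members in the cluster led by Sst, Npy and Slc10a4 held 382 of the 384 Slc5a7 UMIs and 152 of 152 Slc18a3 UMIs. They also held 39 of 39 UMIs of Chat, which makes acetylcholine, and 116 of 116 UMIs of Lhx8, a factor of forebrain cholinergic neurons. These 3 cells were deep, at a median of 72924 UMIs, and carried 24.6% of all SD+RS member UMIs, with 0, 1 and 5 UMIs of Gad1. No SD member fell in that cluster.

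The 10 lowest genes in SD+RS members were Sst, Ly6a, Trh, Vtn, Klf4, Rgs5, Cldn5, Flt1, Klf2 and Avp. Cldn5, a tight-junction gene of brain endothelium, had 0 UMIs in SD+RS members and 92 in SD members, and Rgs5, a pericyte gene, 0 and 95. The 5 SD members of the cluster led by Cldn5 held 336 of the 345 UMIs of the 4 endothelial markers in SD members, and 206 of the 209 UMIs of the 4 mural markers. Of the 620 UMIs of Oxt, Avp, Sim1 and Otp in SD members, 551 lay in 1 of these 5 cells. In the members of the main cluster, endothelial markers summed to 0 UMIs in the SD+RS library and 6 in the SD library, mural markers to 0 and 2, microglial markers to 0 and 1, and astrocyte markers to 5 and 11. Oligodendrocyte markers summed to 21 and 54 UMIs in these members, or 46.1 and 78.7 CPM, against 47.1 and 81.4 CPM in other neurons. Precursor markers summed to 15 and 19 UMIs, all of C1ql1, and ependymal markers to 2 and 2. Members of the main cluster had at most 8 UMIs in a library of any of the 10 highest genes, and at most 6 of any of the 10 lowest.

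Fos differed between the libraries in the main cluster too. Fos, Junb and the Egr and Nr4a genes are transcribed from promoters that bind pre-existing factors such as CREB, and CREB can bind the half-site TGACG of the cAMP response element. The promoters of Fos and Nr4a2, the genes of activity described in most detail here, are shown from 250 bases before the start to 50 after it, 5′ to 3′ on the gene's strand, with each half-site in capitals (on either strand, so that CGTCA is the same site read backwards). They are RefSeq sequences of GRCm38.p6, at chr12:85473640-85473939 on the plus strand for Fos and chr2:57123954-57124253 on the minus strand for Nr4a2.
Fos: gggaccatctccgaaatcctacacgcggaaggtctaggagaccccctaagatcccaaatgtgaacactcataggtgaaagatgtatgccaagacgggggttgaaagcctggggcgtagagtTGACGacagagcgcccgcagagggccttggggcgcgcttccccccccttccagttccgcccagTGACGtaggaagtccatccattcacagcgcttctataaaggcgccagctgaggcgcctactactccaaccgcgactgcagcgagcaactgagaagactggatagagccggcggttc
Nr4a2: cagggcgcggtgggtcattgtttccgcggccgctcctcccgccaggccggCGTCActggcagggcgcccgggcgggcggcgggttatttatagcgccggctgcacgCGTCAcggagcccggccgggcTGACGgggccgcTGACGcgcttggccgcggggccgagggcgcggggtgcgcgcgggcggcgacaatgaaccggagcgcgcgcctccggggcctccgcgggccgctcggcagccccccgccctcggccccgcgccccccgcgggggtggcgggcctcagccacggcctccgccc
The Fos window holds 2 half-sites, whose first bases lie at -129 and -66 from the start, and the letters TATAAA at -33. The Nr4a2 window holds 4 half-sites, at -200, -144, -123 and -111. TGACG on either strand occurs in 20.8% of 32851 promoters of this length. The full element TGACGTCA occurs in 1.79% of them and the AP-1 site TGANTCA in 7.81%, and both windows hold 0 of each. The Nr4a2 window holds TATAAA only on the opposite strand, at -164, where the printed strand reads TTTATA. Of 2 promoters of Dnajb1, a heat-shock gene described below, 1 holds a TGACG, at -11, and the windows of Six3, Arhgap36 and Zic1 hold none. A match is a description of these letters and not a site shown to be bound.

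In the main cluster, Fos had 12 UMIs over 27 SD+RS members and 77 UMIs over 37 SD members. Per cell the lowest, median and highest counts were 0, 0 and 3 in SD+RS members and 0, 1 and 21 in SD members, so the groups overlap and the highest cells are in the SD library. This is 26.4 CPM in SD+RS members against 112 in SD members, a log2 ratio of -2.09 (-3.10 to -1.20). In the whole main cluster the ratio was -1.36 (-1.83 to -0.91), from 55 UMIs in 100 SD+RS cells and 168 in 115 SD cells. In all other neurons Fos stood at 56.5 CPM in the SD+RS library and 55.9 in the SD library, a log2 ratio of 0.02.

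The share of cells with a Fos UMI was 29.6% (13.8% to 50.2%) in SD+RS members and 54.1% (36.9% to 70.5%) in SD members of the main cluster, and these intervals overlap. It was 30% (21.2% to 40%) and 37.4% (28.5% to 46.9%) in the whole main cluster, a smaller difference. In all members it was 31.6% and 48.2%, and in other neurons 35.0% and 29.2%. In astrocyte-like cells, at median depths of 3185 and 3531 UMIs, it was 5.63% and 7.20%. With each cell thinned to 4000 UMIs, which left out 1073 and 1428 of the astrocyte-like cells, the expected shares were 10.2% and 26.9% in main-cluster members, 11.7% and 18.5% in the whole main cluster, 11.7% and 26.4% in all members, 13.7% and 12.5% in other neurons and 10.6% and 9.26% in astrocyte-like cells. On this scale the SD+RS members of the main cluster lay near the astrocyte-like cells and near other neurons, and the SD members above both. Whether the Fos UMIs of the SD+RS members were free RNA was not tested.

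Summed over 14 core immediate early genes (Fos, Fosb, Junb, Egr1, Egr2, Egr3, Egr4, Nr4a1, Nr4a3, Npas4, Arc, Ier2, Btg2 and Dusp1), all members had 99 UMIs in the SD+RS library and 837 in the SD library. This is 110 CPM (89.3 to 134) in SD+RS members and 694 CPM (647 to 742) in SD members, a log2 ratio of -2.66 (-2.97 to -2.36), or 6.31-fold lower in SD+RS members. The 5 SD members of the cluster led by Cldn5, with 68 to 223 core UMIs each, held 563 of the 837 UMIs (67.3%). Without that cluster the ratio was -1.27 (-1.62 to -0.94), and without the called doublets, 1 in the SD+RS library and 8 in the SD library, -1.63 (-1.97 to -1.30). The members outside the main cluster and outside those led by Cldn5, Slc1a3 and Sst, 7 in the SD+RS library and 11 in the SD library, had 174 and 191 CPM, a ratio of -0.13 (-0.79 to 0.51). Fos in these had 18 UMIs in the SD+RS library and 5 in the SD library, a ratio of 2.24 (0.76 to 4.03), opposite to that in the main cluster. In other neurons the same sum was 271 CPM in the SD+RS library and 263 CPM in the SD library, a log2 ratio of 0.05 (0.02 to 0.07).

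**Figure D3:**
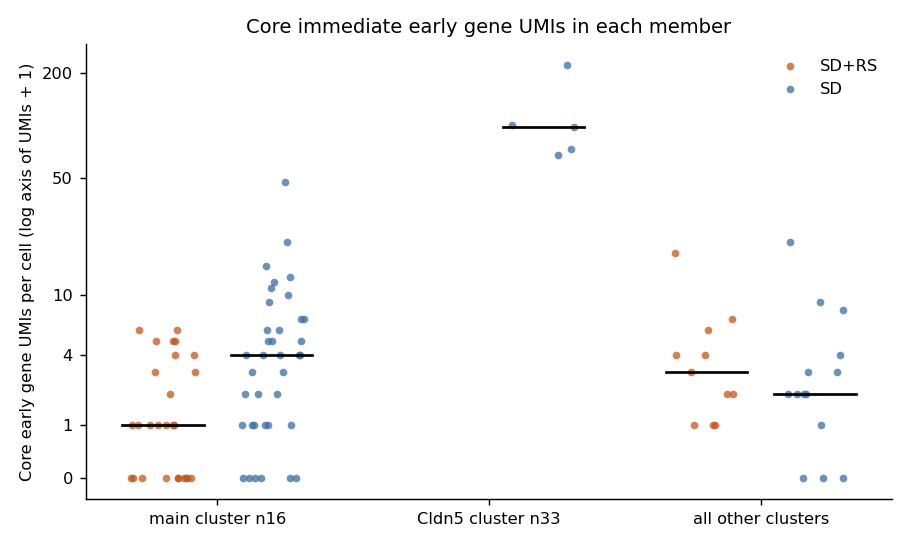
Summed UMIs of the 14 core immediate early genes in each member, by library, for main-cluster members and for members elsewhere. Main-cluster members reach 6 UMIs in the SD+RS library and 47 in the SD library, and the cells of the cluster led by Cldn5, with 68 to 223 UMIs, are all in the SD library.

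In the main cluster the difference was smaller and spread over more cells. Its members had 50 core UMIs in the SD+RS library and 217 in the SD library, or 110 CPM (81.5 to 145) and 316 CPM (275 to 361). The log2 ratio was -1.52 (-2.0 to -1.08), or 2.88-fold lower in SD+RS members. Of the 14 genes only Fos and Junb were measured, and both were over 1.5-fold lower. Junb had 11 UMIs in SD+RS members and 40 in SD members, a ratio of -1.27 (-2.38 to -0.28), while Btg2, with 7 and 12, had a ratio of -0.18 (-1.77 to 1.28). The lowest, median and highest counts per cell were 0, 1 and 6 in SD+RS members and 0, 4 and 47 in SD members. No core UMI was seen in 10 of 27 SD+RS members and 6 of 37 SD members, and 10 or more were seen in 0 and 7 of them. Without the SD cell that held 47, the ratio was -1.21 (-1.69 to -0.74).

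The cells of the main cluster that were not members had 163 CPM in the SD+RS library and 289 CPM in the SD library, so the whole cluster stood at 148 CPM (251 UMIs) and 298 CPM (600 UMIs), a log2 ratio of -1.01 (-1.22 to -0.79). Without the 2 SD cells with most core UMIs in the cluster it was -0.62 (-0.85 to -0.39). Among the 30 clusters with at least 50 cells in each library, the main cluster had the 4th lowest ratio, against a median ratio of 0.14. It ranked 19th from the highest core CPM in the SD+RS library and 7th in the SD library. The clusters with lower ratios were led by Trh and Otp, by Crh and Foxp2 and by Gbx1 and Bcl11b, and the highest ratio, 3.98, was in a cluster led by Tac2 and Gpr139.

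**Figure D4:**
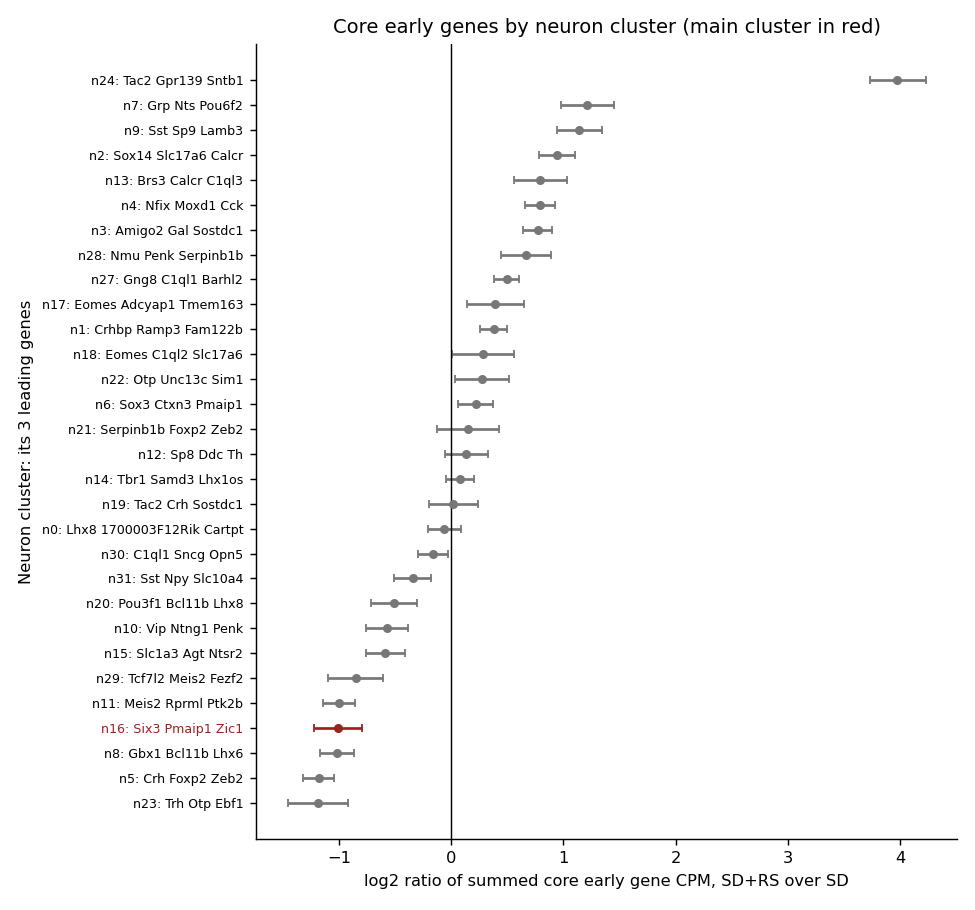
Log2 ratio of core immediate early gene CPM, SD+RS over SD, in the neuron clusters with at least 50 cells in each library, with 95% counting intervals. The main cluster, at -1.01, is 4th from the lowest of 30, and the clusters' median is 0.14.

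The libraries also differed in the sex of their cells. Of the SD+RS members, 31 had Xist UMIs and no Y-linked UMI and 5 the reverse, whereas of the SD members 9 and 37 did. In other neurons the numbers were 3044 and 845 in the SD+RS library and 1345 and 2051 in the SD library. In the whole main cluster, cells with Xist UMIs alone had 162 core CPM in the SD+RS library (72 cells) and 340 in the SD library (20 cells), and cells with Y-linked UMIs alone had 140 (23 cells) and 313 (77 cells). Core CPM was thus lower in the SD+RS library within each sex of the main cluster. No interval was computed for this split, and it keeps the 2 SD cells with most core UMIs. How far sex accounts for the difference between libraries was not tested. Other differences between the libraries below were not split by sex.

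Of the 27 genes of the wider early list, 6 were measured in main-cluster members, 0 were more than 1.5-fold higher and 4 more than 1.5-fold lower in the SD+RS library, beside 4.17% higher and 6.62% lower of all 4122 genes measured there. Jun stood at 61.5 CPM in SD+RS members and 117 in SD members, a log2 ratio of -0.92 (-1.60 to -0.28), and Gadd45g at 65.9 and 112 CPM. Jund, at 442 and 449 CPM, showed no such difference, with a ratio of -0.02 (-0.29 to 0.24). Nr4a2, 63.7 and 157 CPM in main-cluster members, had a ratio of -1.30 (-1.95 to -0.70), but in the whole cluster its ratio was -0.31 (-0.70 to 0.08), and 17% of SD+RS cells and 15.7% of SD cells there had a UMI, against 0.771% and 1.33% of the shallower astrocyte-like cells. The members' Nr4a2 difference was thus not seen across the cluster they came from.

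Some heat-shock genes were lower in the SD+RS library. Of 18 genes on the list, 13 were measured in main-cluster members, 0 were more than 1.5-fold higher and 3 more than 1.5-fold lower, with a median log2 ratio of -0.30 beside -0.01 for all measured genes. Dnajb1, an inducible co-chaperone gene, had 18 UMIs over 27 SD+RS members and 80 over 37 SD members, from 0 to 4 per cell (median 1) and from 0 to 5 (median 2). It stood at 39.6 and 117 CPM, with a log2 ratio of -1.56 (-2.38 to -0.81) in these members, -1.17 in the whole cluster and -0.86 in other neurons. A Dnajb1 UMI was found in 51.9% of SD+RS members and 89.2% of SD members of the main cluster, and in 6.09% and 10.9% of the shallower astrocyte-like cells. The inducible Hsp70 gene Hspa1a had 7 and 34 UMIs in the members and a ratio of -2.07 (-2.84 to -1.37) in the whole cluster. The abundant chaperone genes Hspa8 and Hsp90ab1 differed little, with ratios of -0.13 and -0.05.

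The cold-inducible RNA-binding gene Cirbp was higher. It had a UMI in 27 of 27 SD+RS members and 33 of 37 SD members of the main cluster, with medians of 4 and 2 UMIs per cell, so that the groups overlap. Its level was 288 CPM in SD+RS members and 137 CPM in SD members, which gives a log2 ratio of 1.07 (0.68 to 1.47), with 0.90 in the whole cluster and 0.48 in other neurons. A Cirbp UMI was present in 35.9% of SD+RS astrocyte-like cells and 22.5% of SD ones. Of the 3 cold-inducible genes, Cirbp alone passed 1.5-fold in main-cluster members, and Rbm3 had a ratio of 0.20 (-0.55 to 0.94).

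**Figure D5:**
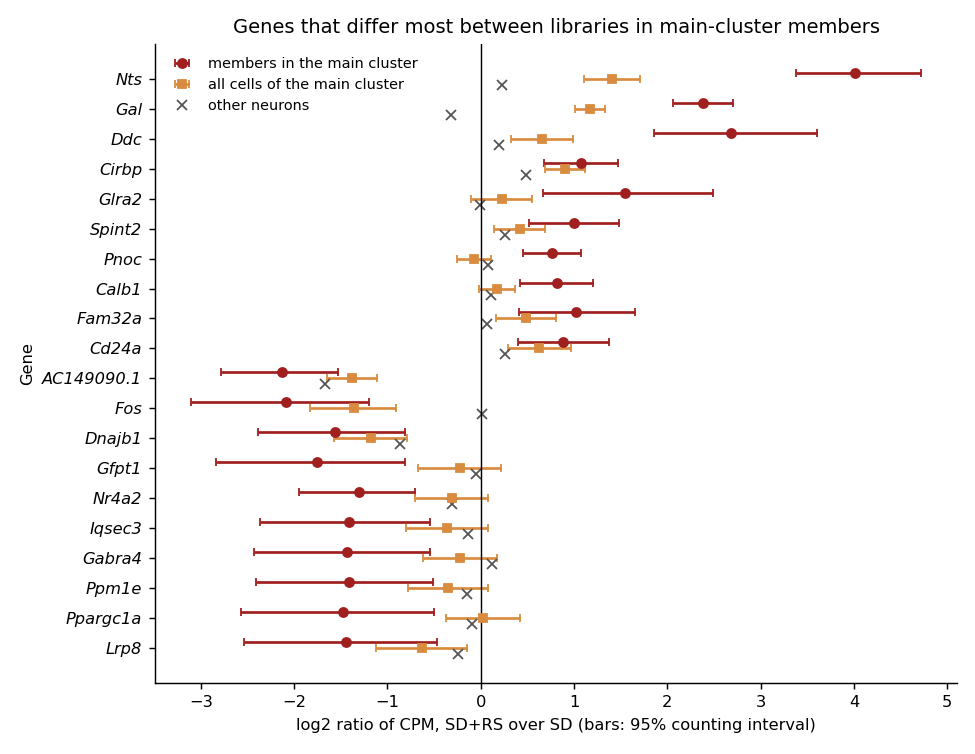
Log2 ratio of CPM, SD+RS over SD, for the 10 genes highest and the 10 lowest in SD+RS members of the main cluster, with the ratio in all main-cluster cells and in other neurons. Bars are 95% counting intervals. Fos is low in the members and the cluster and near 0 in other neurons, whereas Dnajb1 is low and Cirbp high in each.

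Peptide genes made the most higher calls of the lists used in the main cluster. Of 47 genes on the list, 10 were measured in its members, 4 were more than 1.5-fold higher in the SD+RS library (Nts, Gal, Pnoc and Cck) and 0 were lower, beside 4.17% and 6.62% of all genes measured there. Most of the Nts and Gal transcripts lay in few cells, and Cck had 31 UMIs in each library, a ratio of 0.59 (-0.17 to 1.36) there and 0.02 in the whole cluster. Nts, the neurotensin gene, had 236 UMIs in 9 of 27 SD+RS members, the highest with 86, and 22 UMIs in 4 of 37 SD members, the highest with 12. Its log2 ratio was 4.02 (3.38 to 4.72) in these members and 1.41 in the whole cluster, where 18% of SD+RS cells and 22.6% of SD cells had a UMI. Gal, the galanin gene of a known class of preoptic sleep-active neurons, had 365 UMIs in 14 SD+RS members, the highest with 122, and 106 UMIs in 16 SD members, the highest with 31. Its ratio was 2.38 (2.06 to 2.70) in these members, 1.17 in the whole cluster, 0.10 in all members and -0.31 in other neurons. A Gal UMI was found in 6.55% of SD+RS and 10.3% of SD astrocyte-like cells, and a Nts UMI in 5.17% and 9.42%.

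Pnoc, the precursor of nociceptin, was more widely held, in 18 SD+RS members with 185 UMIs and 23 SD members with 164 UMIs. It stood at 407 and 239 CPM there, with a ratio of 0.77 (0.46 to 1.08) in these members and -0.07 in the whole cluster. Scg2, a granin gene, stood at 870 and 603 CPM, with a ratio of 0.53 (0.33 to 0.73) in the members, below the 1.5-fold limit, and -0.17 in the whole cluster. The differences of Pnoc and Scg2 in the members were thus not seen across the cluster. Ddc, aromatic amino acid decarboxylase, had 64 UMIs in 15 SD+RS members and 15 UMIs in 11 SD members, with a ratio of 2.69 (1.86 to 3.60), and 0.66 (0.32 to 0.99) in the whole cluster. Th, which makes its usual substrate, had no UMI in these members. Also among the 10 highest were Glra2, Spint2, Calb1, Fam32a and Cd24a, with ratios from 0.81 for Calb1 to 1.55 for Glra2.

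The lowest genes besides Fos, Dnajb1 and Nr4a2 were AC149090.1, Gfpt1, Iqsec3, Gabra4, Ppm1e, Ppargc1a and Lrp8. AC149090.1, a gene model without an assigned function here, had 26 UMIs in SD+RS members and 172 in SD members of the main cluster, with a ratio of -2.13 there and -1.67 in other neurons. Gabra4, a GABA-A receptor subunit gene, stood at 28.6 CPM in SD+RS members and 77.2 in SD members, a ratio of -1.43 (-2.43 to -0.54), and -0.22 (-0.62 to 0.18) in the whole cluster. Gfpt1, Iqsec3, Ppm1e and Ppargc1a likewise had whole-cluster intervals that include 0. Lrp8, a reelin receptor gene, kept a ratio of -0.63 (-1.12 to -0.14) in the whole cluster.

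Calls in the other lists can be read against the 4.17% higher and 6.62% lower of all genes measured in these members. Among GABA and glutamate receptors, 23 of 43 were measured in main-cluster members, 2 were higher and 3 lower in the SD+RS library. Among calcium, sodium and HCN channels, 20 of 35 were measured, with 1 higher and 4 lower. Potassium channels had 10 of 36 measured, with 0 higher and 1 lower, and synaptic organisers 22 of 57, with 0 higher and 5 lower. Among transcription factors, 17 of 66 were measured, with 1 higher and 2 lower. Zic1 had a ratio of -0.23 (-0.53 to 0.07) there and Onecut2 of -0.01 (-0.50 to 0.48). Of the unfolded protein response genes, 12 of 16 were measured, with 0 higher and 3 lower, and Hspa5 had a ratio of -0.04. Clock genes had 5 of 19 measured, with 1 higher (Rorb) and 1 lower (Nr1d2). Of 30 imprinted genes, 17 were measured, with 0 higher and 3 lower.

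Lists tied to the markers themselves held few calls. Of the 15 Bcl-2 family genes on the list that goes with Pmaip1, 4 were measured in main-cluster members, Bad, Bax, Bcl2l1 and Bok, and 0 were called in either direction. Of the 28 genes of protein kinase A and CREB signalling that go with Arhgap36, 12 were measured, with 0 higher and 2 lower, the phosphodiesterase genes Pde10a and Pde4d. The catalytic subunit gene Prkaca stood at 255 CPM in SD+RS members and 267 in SD members, a ratio of -0.06 (-0.41 to 0.28), and Prkacb at 580 and 533 CPM. None of the 15 Hedgehog pathway genes reached 50 UMIs in these members, so a difference was not detectable at this depth. Of the 8 measured genes tied to sleep need, Camk2b, Kcnk9, Mef2c, Nalcn, Sik3, Camk2a, Cacna1g and Adk, 0 passed 1.5-fold in either direction. Mef2c stood at 156 and 124 CPM in the members of the main cluster, against 54.8 and 60.1 in other neurons.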

How the data were processed

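Single-cell RNA from the preoptic area was measured in 2 libraries. The deposited values are raw UMI counts. Per the file headers they come from Cell Ranger 3.0.2, and the submitters' processing notes name the build mm10 and Seurat 4.0.4. The fraction of cells with a gene, in and out of each cluster, comes from the authors' deposited marker tables and is printed as a percent. No source used here says whether the counting used strand, so overlapping genes may share reads.

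The members and the gene lists were chosen with earlier results of these data known. Counts were summed over cells and scaled to CPM with exact Poisson intervals; library ratios have exact conditional binomial intervals, and shares Clopper-Pearson intervals, all at 95% and for counting error only. A call was a fold over 1.5 between libraries, or over 2 against other neurons in both libraries; no test was possible with 1 library per group. Called genes exclude the rule's, mitochondrial, ribosomal, Xist, Tsix and Y-linked genes. Genes named for all members are the 20 highest and 10 lowest against other neurons, the 10 highest and 10 lowest between libraries by the interval bound nearer 0, and examples from each list. The same rule between libraries, applied to the main-cluster members, and the genes named for that cluster against other neurons were chosen after the data were seen.

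Neurons were clustered with scanpy 1.11.5 and leidenalg 0.10.2 (2000 variable genes, 40 principal components, 20 neighbours, resolution 1.5). Doublets were called with scanpy's Scrublet at an expected 6%, which marked 297 of 7709 SD+RS cells (3.85%) and 580 of 9875 SD cells (5.87%) with at least 500 genes; they were kept, and removed in an alternative. Astrocyte-like cells had at least 10 UMIs over at least 3 astrocyte markers and at most 2 of Snap25 and Syt1. They were used as a guide to free RNA, which cannot be told apart from their own transcripts. Each cell was thinned to 4000 UMIs to compare shares. The calls were tested on simulated data. Alternatives changed the marker minimum, doublets, limits, gene minimum, sex, averaging, thinning and the UMI minimum for a measured gene. Promoters came from RefSeq (GRCm38.p6). Python 3.11.15, numpy 2.4.6, scipy 1.17.1 and pandas 2.3.3 were used.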

Additional observations from a re-analysis of the deposited data

Results flagged for a closer look

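The ratio of core immediate early gene CPM between the libraries had the opposite sign in members and in other neurons. It was -2.66 (log2, SD+RS over SD) in all members and 0.05 in other neurons, and the difference between these ratios was not tested. Of the core UMIs of SD members, 67.3% lay in the 5 cells of the cluster led by Cldn5, and the ratio without that cluster was -1.27 in members and 0.13 in other neurons.

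In members of the main cluster the ratio was -1.52, again opposite in sign to that of other neurons, and this difference was not tested either. Endothelial markers summed to 0 UMIs in these SD+RS members and 6 in these SD members. Without the SD cell with most core UMIs the ratio was -1.21.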

How the results depend on the processing

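No paired analysis was possible because each group is 1 library. Over 14 settings no core ratio changed sign, but in cells with Xist UMIs alone the balance of calls between libraries and the order of the shares did. With every marker at 2 UMIs or more, 160 genes were higher and 263 lower in SD+RS members, 2 were above and 10 below other neurons, and members were 0.386% of SD+RS and 0.790% of SD neurons. Without called doublets the core ratio was -1.63 in members and 0.193 in other neurons. In cells with Xist UMIs alone, 438 genes were higher and 231 lower between libraries (306 and 523 in all members). There, 0 genes were above and 6 below other neurons, and members were 1.01% of SD+RS and 0.665% of SD neurons. In cells with Y-linked UMIs alone, with 5 SD+RS members, the core ratio was -1.08 in members and 0.115 in other neurons. A single SD+RS member outside the main cluster held 18 of the 22 core UMIs behind this ratio. Of the 525 in SD members, 101 and 223 lay in cells of the cluster led by Cldn5. With Y-linked UMIs alone, 0 genes were above and 4 below other neurons, and the SD+RS share was 0.588%. With means over cells, the core ratios were -2.05 and 0.00505, and 40 genes were below other neurons. With 20 UMIs for a measured gene, 710 were higher and 1111 lower between libraries, and 38 above and 71 below other neurons; with 100 UMIs, these counts were 149, 187, 2 and 13. The settings chosen after seeing the data were the main-cluster members alone (core ratio -1.52, 172 genes higher and 273 lower between libraries, 40 below other neurons, 0.948% of SD neurons with the other members left out of the total), no Cldn5 cluster (-1.27, and 0.129 in other neurons), main-cluster members without the cell with most core UMIs (-1.21) and the whole main cluster (-1.01). The cause of these shifts was not tested beyond the cells each setting removes. With 38 and 56 members, most receptor and Hedgehog genes were under the limit for a measured gene.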
